A study of Mus musculus with 6 samples.

Results

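The genes described here encode the subunits of the mitochondrial respiratory chain and of the ATP synthase, with assembly factors that carry the same name stems. They were chosen from the expression table by symbol alone, taking symbols that start with Nduf followed by a, b, c, s or v, *Sdha* to *Sdhd*, symbols that start with Uqcr, Cox4 to Cox8, and symbols that start with Atp5. Of 24786 gene symbols, 92 fitted this pattern. An RPKM (reads per kilobase of gene, scaled to all mapped reads) of 1 or more in at least 3 of the 6 libraries was found for 87 of them, out of 10738 genes that passed the same filter. Complex I contributed 44 genes, complex II 4, complex III 8, complex IV 15 and complex V 15, and the remaining gene, *Atp5s*, is named for the ATP synthase but does not encode a subunit.

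The study asked which genes depend on *Etv5*, a transcription factor of the ETS family, in mouse macrophages. Polyadenylated RNA was sequenced from Raw264.7 cells, a macrophage line that the labels trace to a tumor induced by a leukemia virus, with the strain given as C57BL/6 and the age as postnatal day 21. Lentivirus carried a control shRNA in the group sh-NC and an shRNA targeting *Etv5* in the group sh-*Etv5*, with 3 libraries each, and no other treatment separates them. All cells of both groups were thus virus-treated cells of 1 tumor line. The labels name Lipofectamine 3000 and a harvest 24 or 48 h after infection, whereas the methods describe puromycin selection, and neither says which of the shRNAs tested was sequenced. Whether separate infections lie behind the libraries is stated nowhere, so n is a number of libraries and the p-values measure the spread between these libraries, which may be technical.

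In the respiratory chain, complex I oxidises NADH and complex II oxidises succinate, and both pass electrons to ubiquinone in the inner mitochondrial membrane. Complex III hands them on to cytochrome c and complex IV to oxygen, while complexes I, III and IV pump protons that drive the rotary ATP synthase, complex V. Most subunits are encoded in the nucleus and imported, and a small set is encoded by mitochondrial DNA. In macrophages the balance between this pathway and glycolysis is known to differ between activation states.

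*Etv5* itself measured 9.18, 9.89 and 9.39 RPKM in sh-NC and 5.19, 4.91 and 5.28 RPKM in sh-*Etv5* (log2 fold change -0.78 with SE 0.057, adjusted p = 2.74e-07), and the groups did not overlap. The RPKM values summed to between 320462 and 322949 in the sh-NC libraries and between 330454 and 340257 in the sh-*Etv5* libraries, and the 12 genes that rank among the top 10 of any library held 7.26% to 7.38% of the sum in sh-NC and 11.0% to 11.3% in sh-*Etv5*. The deposited values do not give the number of reads, so no counting error was computed. Of 8 macrophage markers, 7 passed the filter, and *Csf1r*, *Cd68*, *Fcgr1* and *Lyz2* were called lower (log2 fold changes -0.81, -0.57, -0.56 and -0.47) while *Itgam*, *Adgre1* and *Spi1* were called higher (log2 fold changes 1.88, 1.77 and 0.15). The summed level of the list ran from 3837 to 3942 RPKM in sh-NC and from 2829 to 2909 RPKM in sh-*Etv5*. Of 5 neutrophil markers, *S100a8* rose from 0.306 ± 0.184 to 17.1 ± 2.29 RPKM (mean ± SD, n = 3 and 3), and *Ly6g*, *S100a9* and *Elane* were listed at 0 in every library. The summed markers of fibroblasts, adipocytes and T and B cells reached at most 0.164, 0.0626 and 0.401 RPKM. The part of these marker changes in the results on the respiratory chain was not tested, and in bulk RNA fewer cells of a type cannot be told apart from less RNA per cell.

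Expression of the respiratory chain was mostly lower in sh-*Etv5* cells, by small amounts. With limma on log2(RPKM + 1) and a Benjamini-Hochberg adjusted p under 0.05 over all 10738 genes, 51 of the 87 genes were called lower (58.6%), 7 were called higher (8.05%) and 29 were not called. Over all genes tested, 41.0% were called lower and 33.3% were called higher. The 3 sh-*Etv5* values all lay below the 3 sh-NC values for 49 of the 87 genes and above them for 9, against 42.1% and 34.3% of all genes tested. A called log2 fold change under -0.5 was found for 10 of the 87 genes, whereas 15.0% of all genes tested passed that limit, so large falls were not more frequent than in the table as a whole. The median log2 fold change (sh-*Etv5* minus sh-NC) was -0.20 over the 87 genes and -0.049 over all genes tested, with values from -0.84 for *Uqcrh* to 2.95 for *Cox6a2*, and 70 of the 87 were below 0. No set test was made, since the genes were chosen with earlier results of these data known.

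The same shift was seen in the totals. Summed over the 87 genes, the level went from 8609 ± 95.7 to 7437 ± 291 RPKM (mean ± SD, n = 3 and 3), a fall of 13.6%, and the share of the libraries' summed RPKM went from 2.68% to 2.22%. The single libraries held 8596, 8709.9 and 8519.9 RPKM in sh-NC and 7411, 7160.1 and 7739 RPKM in sh-*Etv5*, so the groups did not overlap and the third sh-*Etv5* library lay nearest to the controls. Relative to the sh-NC mean, the median of the 87 genes was -0.20, -0.24 and -0.11 on the log2 scale in the sh-*Etv5* libraries and between -0.011 and 0.023 in the sh-NC libraries. No p is given for these sums, and an exact permutation test of 3 against 3 libraries could not go below 0.1.

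**Figure D1:**
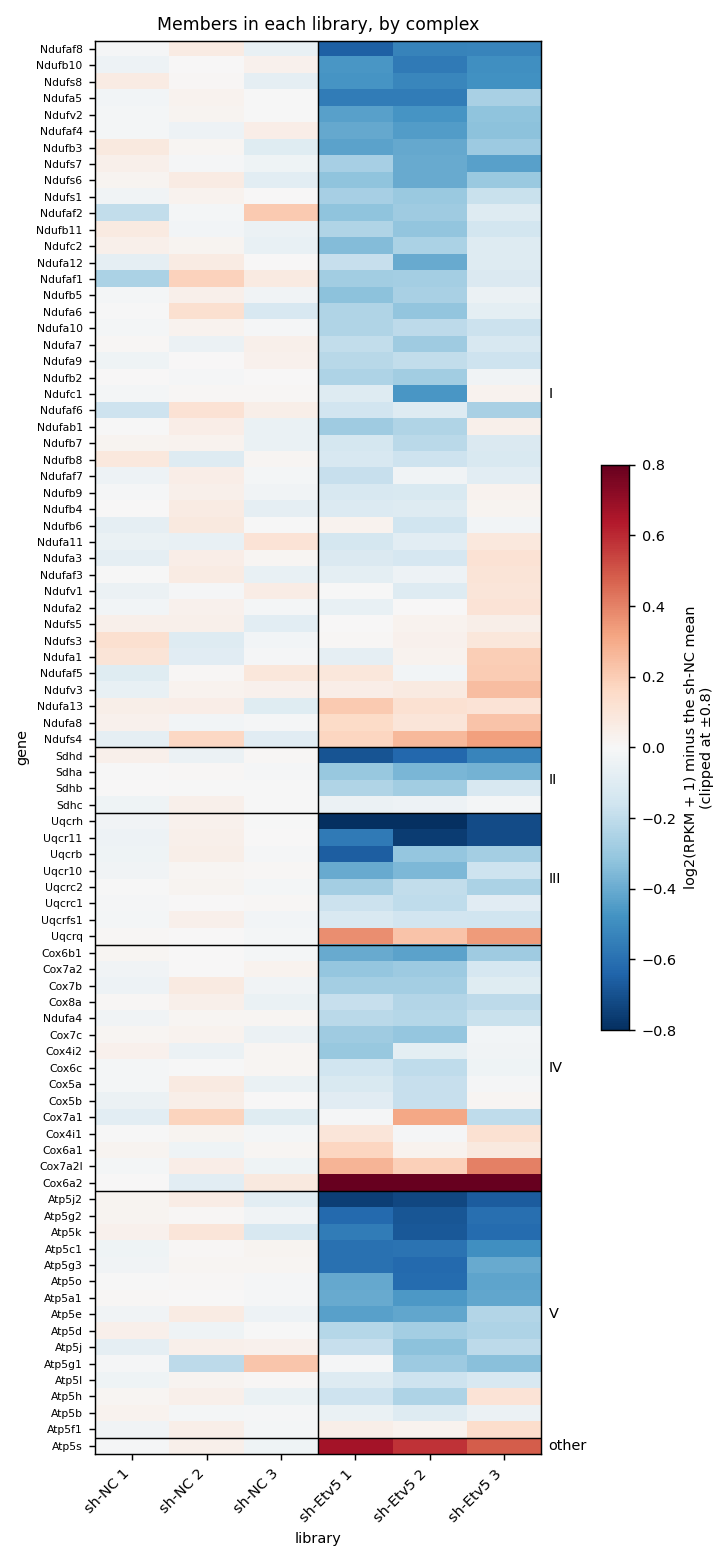
The levels of 86 of the 87 genes (rows, grouped by complex) in each of the 6 libraries (columns), as log2(RPKM + 1) minus the mean of the 3 sh-NC libraries, with colors clipped at 0.8 in either direction. Blue dominates the sh-Etv5 columns, except for complex IV in the third sh-Etv5 library, where the median was -0.030. That library is paler than the other sh-Etv5 libraries, and Cox6a2 exceeds the color scale in all 3.

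**Figure D2:**
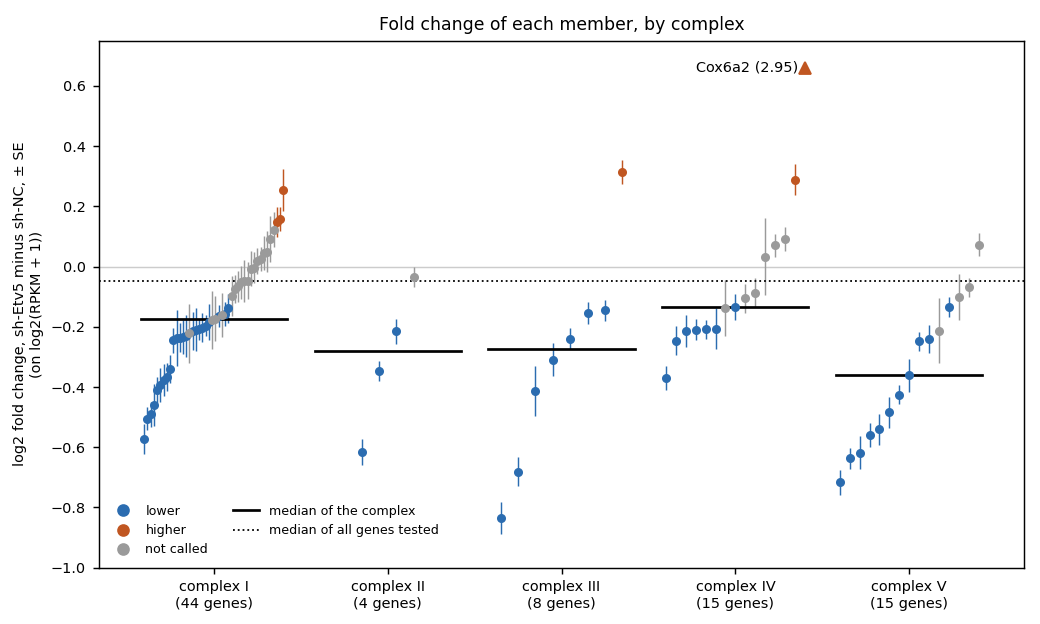
Log2 fold change (sh-Etv5 minus sh-NC, on log2(RPKM + 1), ± SE, n = 3 and 3 libraries) of each gene, in columns by complex, colored by the limma call, with Atp5s not drawn and Cox6a2 placed at the top edge because its value of 2.95 lies off the axis. Black bars mark the medians, -0.18, -0.28, -0.27, -0.13 and -0.36 for complexes I to V, all below the dotted median of all genes tested at -0.049.

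Complex I, the NADH dehydrogenase, had 23 of 44 genes called lower (52.3%), 3 called higher and 18 not called, with a median of -0.18. The shares over all genes tested were 41.0% lower and 33.3% higher. Its summed level went from 2091 ± 26.1 to 1857 ± 91.6 RPKM (mean ± SD, n = 3 and 3), a fall of 11.2%. The largest fall of a subunit was that of *Ndufb10*, an accessory subunit of the membrane arm, with 79.7, 82.0 and 84.0 RPKM in sh-NC and 59.1, 55.1 and 58.1 RPKM in sh-*Etv5* (log2 fold change -0.51 with SE 0.039, adjusted p = 4.06e-07). All 3 sh-*Etv5* values lay below the lowest control. *Ndufs8*, an iron-sulfur subunit of the module that reduces ubiquinone, measured 82.1, 79.0 and 74.7 RPKM in sh-NC and 56.5, 54.5 and 55.8 RPKM in sh-*Etv5* (log2 fold change -0.49 with SE 0.041, adjusted p = 7.75e-07), and its groups did not overlap either. The assembly factor *Ndufaf8* fell from 27.1 ± 1.26 to 17.9 ± 0.912 RPKM (mean ± SD, n = 3 and 3) with the largest drop of all complex I genes (log2 fold change -0.57, adjusted p = 1.41e-06).

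The arms of complex I are given by module. In the Q module, which carries electrons to ubiquinone, 5 of 6 genes were called lower, among them *Ndufs8*, *Ndufa5* (log2 fold change -0.46, adjusted p = 0.000121), *Ndufs7* (log2 fold change -0.37, adjusted p = 2.50e-05) and *Ndufa9* (log2 fold change -0.20, adjusted p = 0.000462). *Ndufs3* was not called (log2 fold change 0.045, adjusted p = 0.478). In the N module, which takes up NADH, 3 of 7 were called lower, 1 was called higher and 3 were not called. There *Ndufv2* (log2 fold change -0.41, adjusted p = 7.37e-06), *Ndufs6* (log2 fold change -0.34, adjusted p = 5.20e-05) and *Ndufs1* (log2 fold change -0.25, adjusted p = 0.000262) fell, whereas *Ndufv1*, which binds NADH, had 52.4 ± 1.98 RPKM in sh-NC and 52.3 ± 3.71 RPKM in sh-*Etv5* (mean ± SD, n = 3 and 3) and was not called (log2 fold change -0.0041, adjusted p = 0.946). *Ndufs4*, another subunit of that module, measured 17.5, 20.8 and 17.3 RPKM in sh-NC and 21.0, 22.3 and 23.4 RPKM in sh-*Etv5* (log2 fold change 0.25 with SE 0.069, adjusted p = 0.0061), and the lowest sh-*Etv5* value was just above the highest control. In the membrane arm, 9 of 19 nuclear genes were called lower and 2 higher. Of 8 assembly factors, 3 were called lower and 5 were not called. The matrix arm subunits *Ndufa12*, *Ndufa6* and *Ndufa7* were placed in none of these groups and were called lower (log2 fold changes -0.23, -0.21 and -0.20). *Ndufab1*, not placed either, was not called. The shares called lower were 83.3% in the Q module, 42.9% in the N module and 47.4% in the membrane arm. They were 37.5% for the assembly factors and 41.0% for all genes tested. No test was made between the modules.

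Beside *Ndufs4*, the called rises in complex I were those of *Ndufa8* and *Ndufa13*, both in the membrane arm. *Ndufa8* measured 80.0, 77.0 and 77.7 RPKM in sh-NC and 87.0, 83.6 and 91.7 RPKM in sh-*Etv5* (log2 fold change 0.16 with SE 0.040, adjusted p = 0.0041) without overlap of the groups. *Ndufa13*, also known as GRIM-19, rose from 24.0 ± 1.46 to 26.7 ± 1.01 RPKM (mean ± SD, n = 3 and 3, log2 fold change 0.15, adjusted p = 0.0216). However, 28.5% of its 50-base sequences occur in other annotated genes, most often *Tssk6*, which overlaps its exons on the opposite strand. Such shares count both strands, so overlaps on the opposite strand add to them here and below. The subunit with the highest level in sh-NC was *Ndufs7*, which fell from 115 ± 3.11 to 89.1 ± 5.73 RPKM (mean ± SD, n = 3 and 3). The genes without a call were *Ndufa1*, *Ndufa2*, *Ndufa3*, *Ndufa11*, *Ndufab1*, *Ndufb4*, *Ndufb6*, *Ndufb9*, *Ndufc1*, *Ndufs3*, *Ndufs5*, *Ndufv1*, *Ndufv3* and the assembly factors *Ndufaf1*, *Ndufaf3*, *Ndufaf5*, *Ndufaf6* and *Ndufaf7*, with log2 fold changes from -0.22 to 0.12. *Ndufa6* and *Ndufaf2* were called lower with overlapping groups. For *Ndufaf2*, 64.1% of the 50-base sequences occur in other genes, most often *B230220B15Rik*, which overlaps it on the opposite strand. Left-out libraries ended the calls of *Ndufa6*, *Ndufa13*, *Ndufaf2*, *Ndufb2* and *Ndufb8*.

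Complex II, the succinate dehydrogenase, is made of 4 nuclear-encoded proteins, and 3 of the 4 genes were called lower, against 41.0% of all genes tested. Its summed level went from 426 ± 2.48 to 336 ± 9.76 RPKM (mean ± SD, n = 3 and 3), a fall of 21.2%. *Sdhd*, a membrane anchor and the most strongly expressed of the 4 in sh-NC, measured 166, 156 and 162 RPKM in sh-NC and 99.5, 104 and 111 RPKM in sh-*Etv5* (log2 fold change -0.62 with SE 0.044, adjusted p = 2.26e-07). *Sdha*, the flavoprotein that oxidises succinate, measured 84.3, 84.8 and 84.0 RPKM in sh-NC and 68.1, 65.3 and 64.8 RPKM in sh-*Etv5* (log2 fold change -0.35 with SE 0.034, adjusted p = 3.12e-06). For both genes the groups were widely apart compared with the spread within them. The iron-sulfur subunit *Sdhb* fell by a smaller amount, from 99.1 ± 0.166 to 85.3 ± 4.56 RPKM (mean ± SD, n = 3 and 3, log2 fold change -0.22, adjusted p = 0.000545). *Sdhc*, the partner of *Sdhd* in the membrane, had 79.1, 83.4 and 80.8 RPKM in sh-NC and 78.5, 78.8 and 80.2 RPKM in sh-*Etv5*, and these values overlapped (log2 fold change -0.034, adjusted p = 0.378, 95% interval -0.11 to 0.041). The 95% interval of *Sdhd*, -0.71 to -0.52, did not meet that of *Sdhc*.

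Complex III, the cytochrome bc1 complex, had every one of its 8 genes called, 7 lower and 1 higher, with a median of -0.27. Over all genes tested, 41.0% were called lower and 33.3% higher. The summed level went from 856 ± 14.3 to 678 ± 25.1 RPKM (mean ± SD, n = 3 and 3), a fall of 20.8%. *Uqcrh*, the hinge protein beside cytochrome c1, had the largest fall of all 87 genes and the highest control level in the complex, with 168, 176 and 171 RPKM in sh-NC and 95.7, 88.2 and 104 RPKM in sh-*Etv5* (log2 fold change -0.84 with SE 0.053, adjusted p = 8.33e-08). *Uqcr11*, a small accessory subunit, measured 123, 131 and 128 RPKM in sh-NC and 85.5, 74.8 and 77.1 RPKM in sh-*Etv5* (log2 fold change -0.68 with SE 0.049, adjusted p = 2.29e-07). In both genes each sh-*Etv5* library lay below each control by a margin larger than the spread within groups. *Uqcrb* fell from 71.4 ± 2.12 to 53.8 ± 7.71 RPKM (mean ± SD, n = 3 and 3, log2 fold change -0.41, adjusted p = 0.00091), with its first sh-*Etv5* library at 44.9 RPKM against 57.4 and 59.0 RPKM in the others, and 25.5% of its 50-base sequences occur in other genes. *Uqcr10* (log2 fold change -0.31, adjusted p = 0.000346), *Uqcrc2* (log2 fold change -0.24, adjusted p = 8.52e-05), *Uqcrc1* (log2 fold change -0.15, adjusted p = 0.00251) and the Rieske iron-sulfur protein *Uqcrfs1* (log2 fold change -0.15, adjusted p = 0.00272) were also lower. *Uqcrq*, a small subunit of the same complex, went the other way with 81.8, 81.4 and 80.5 RPKM in sh-NC and 105, 95.3 and 103 RPKM in sh-*Etv5* (log2 fold change 0.31 with SE 0.040, adjusted p = 3.21e-05), and its groups did not overlap.

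The promoter of *Uqcrh*, the gene that fell most, is shown, followed by that of *Atp5l*, an ATP synthase gene. They were the called lower genes of their complexes with the largest change among those with a searched motif in the longest stretch before the start that no annotated exon covers, of at least 50 bases, and complexes I, II and IV held no such gene. Both lie on the minus strand of GRCm38, were taken from RefSeq and are written 5′ to 3′ on the strand of the gene. The *Uqcrh* stretch (chr4:116075072-116075268) has in capitals a match to the ETS letters CCGGAAGT on the other strand, which begins 11 bases before the start of transcription. The *Atp5l* stretch (chr9:44920752-44920992) has in capitals a match to the letters GCGCANGCG of nuclear respiratory factor 1 (NRF1). This match is also on the other strand and begins 241 bases before the start.
Uqcrh: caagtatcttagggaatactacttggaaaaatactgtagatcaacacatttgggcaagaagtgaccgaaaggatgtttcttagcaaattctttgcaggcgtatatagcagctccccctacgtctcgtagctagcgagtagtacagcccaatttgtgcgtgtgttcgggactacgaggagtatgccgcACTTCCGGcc
Atp5l: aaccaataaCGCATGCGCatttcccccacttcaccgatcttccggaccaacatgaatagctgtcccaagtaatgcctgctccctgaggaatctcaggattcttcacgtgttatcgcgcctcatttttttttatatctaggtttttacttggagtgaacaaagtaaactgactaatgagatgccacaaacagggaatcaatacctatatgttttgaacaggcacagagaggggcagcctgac

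RefSeq gave a window of 300 bases (250 before and 50 after the start) for 73 of the 87 genes, and both strands were searched. The ETS letters were present in 5 of the 73 windows (6.85%), in 9.91% of the windows of all tested genes and in 3.89% of all windows. The NRF1 letters were present in 21 of the 73 (28.8%), against 15.6% of tested genes and 6.25% of all windows. The letters AAGATGGC of YY1 were present in 10 of the 73 (13.7%), against 5.40% and 2.75%. Among the 45 windows of genes called lower, 6.67% held the ETS letters and 31.1% the NRF1 letters, and among the 23 of genes not called these shares were 8.70% and 26.1%. The genes with an ETS match were *Uqcrh*, *Uqcr11*, *Cox8a*, *Ndufs3* and *Atp5h*, of which 3 were called lower and 2 were not called. These matches describe the letters and are not measured binding sites.

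Complex IV, the cytochrome c oxidase, shifted least in its total. Of 15 genes, 7 were called lower (46.7%), 2 were called higher (13.3%) and 6 were not called. Among all genes tested, these shares were 41.0% and 33.3%. The summed level went from 2365 ± 29.7 to 2247 ± 91.6 RPKM (mean ± SD, n = 3 and 3), a fall of 4.98%. The largest fall was that of *Cox6b1*, with 211, 209.6 and 207 RPKM in sh-NC and 158, 155 and 172 RPKM in sh-*Etv5* (log2 fold change -0.37 with SE 0.040, adjusted p = 7.88e-06), and the groups did not overlap. *Cox7a2* (log2 fold change -0.25, adjusted p = 0.000638), *Cox7b* (log2 fold change -0.21, adjusted p = 0.00329), *Cox8a* (log2 fold change -0.21, adjusted p = 0.000207), *Ndufa4*, first assigned to complex I and later found in complex IV (log2 fold change -0.21, adjusted p = 0.000112), *Cox7c* (log2 fold change -0.21, adjusted p = 0.0159) and *Cox6c* (log2 fold change -0.13, adjusted p = 0.0158) were lower by less. *Cox7c* was called with overlapping groups, and 22.1% of its 50-base sequences occur elsewhere. The calls of *Cox6c* and *Cox7c* were lost when 1 library was left out.

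The 2 genes of complex IV with the highest levels were not called. *Cox4i1*, with the highest level of the complex, measured 423, 430.0 and 419.7 RPKM in sh-NC and 454, 421 and 462 RPKM in sh-*Etv5* (log2 fold change 0.070, adjusted p = 0.118). *Cox6a1* measured 401, 386 and 399 RPKM in sh-NC and 444, 403 and 418 RPKM in sh-*Etv5* (log2 fold change 0.092, adjusted p = 0.0543), and its 3 sh-*Etv5* values lay just above the controls. *Cox5a* (log2 fold change -0.11, adjusted p = 0.0708) and *Cox5b* (log2 fold change -0.086, adjusted p = 0.133) had overlapping groups.

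Some subunits of complex IV exist as isoforms from separate genes, and the isoform typical of heart and muscle gave the largest change of all 87 genes. *Cox6a2*, the heart and muscle isoform of subunit 6A, measured 0.293, 0.220 and 0.366 RPKM in sh-NC and 8.73, 10.2 and 8.23 RPKM in sh-*Etv5* (log2 fold change 2.95 with SE 0.087, adjusted p = 2.09e-10). The ratio of the means was 30.9, larger than the log2 value conveys because 1 was added to each RPKM. *Cox6a2* passed the filter through the sh-*Etv5* libraries alone, so its inclusion already required a difference. It made up 0.0739% ± 0.0173 of the summed *Cox6a1* and *Cox6a2* level in sh-NC and 2.11% ± 0.309 in sh-*Etv5* (SD, n = 3 and 3), so *Cox6a1* supplied nearly all of that sum in both groups. The gene lies at chr7:128205435-128206387 on the minus strand of GRCm38 with 3 exons, and 10.3% of its exon bases overlap *Itgad* on the opposite strand. *Itgad* measured at most 0.0390 RPKM in any library.

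The remaining isoform sets are given by their levels. *Cox4i2*, a lung isoform that hypoxia induces, was just inside the filter with values from 0.879 to 1.38 RPKM and was not called (log2 fold change -0.14, adjusted p = 0.197). *Cox7a1*, the heart and muscle isoform of subunit 7A, measured 1.57, 2.09 and 1.55 RPKM in sh-NC and 1.71, 2.38 and 1.37 RPKM in sh-*Etv5* and was not called (log2 fold change 0.033, adjusted p = 0.823), and the sign of that difference changed with the scaling. The 5 genes of the pattern under the filter were all tissue isoforms or paralogs. *Cox6b2*, *Cox7b2* and *Cox8c* were listed at 0 in every library, *Cox8b* reached 0.00396 RPKM in 1 library, and *Ndufa4l2*, a paralog of *Ndufa4* and the highest of those under the filter, reached at most 0.108 RPKM. *Cox7a2l*, which links complexes III and IV in supercomplexes, measured 60.9, 63.9 and 60.2 RPKM in sh-NC and 74.5, 70.6 and 81.9 RPKM in sh-*Etv5* (log2 fold change 0.29 with SE 0.051, adjusted p = 0.000391), with all sh-*Etv5* values above the controls. Its share of the summed *Cox7a1*, *Cox7a2* and *Cox7a2l* level went from 42.4% ± 0.898 to 51.6% ± 1.01 (SD, n = 3 and 3).

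**Figure D3:**
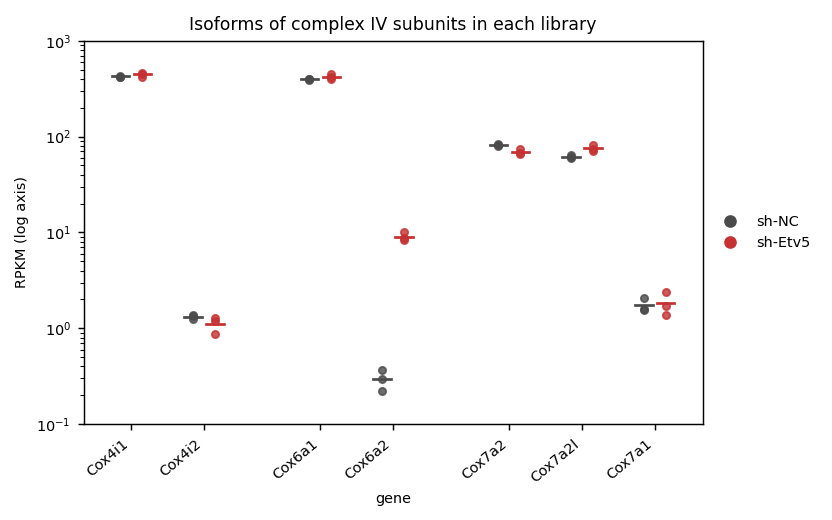
RPKM on a log axis of the isoforms of subunits 4, 6A and 7A of complex IV, with 1 point per library (sh-NC gray, sh-Etv5 red, n = 3 each) and a bar at each group's mean. Cox6a2 went from 0.293 to 9.05 RPKM, far below Cox6a1 in both groups, while Cox4i2 and Cox7a1 stayed between 0.879 and 2.38 RPKM.

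Complex V, the ATP synthase, had the lowest median of the complexes, -0.36. Of its 15 genes, 11 were called lower (73.3%), 4 were not called and 0 were called higher, by limma or by an unadjusted p under 0.05. The shares over all genes tested were 41.0% called lower and 33.3% called higher. The summed level went from 2869 ± 33.2 to 2316 ± 79.1 RPKM (mean ± SD, n = 3 and 3), a fall of 19.3%, and 5 of the 10 falls beyond -0.5 were in this complex. In the membrane part, all 3 genes for subunits e, f and g were called lower. Subunit f, *Atp5j2*, measured 194, 199 and 180.3 RPKM in sh-NC and 113, 115 and 119.8 RPKM in sh-*Etv5* (log2 fold change -0.72 with SE 0.042, adjusted p = 4.52e-08). Subunit e, *Atp5k*, measured 132, 139 and 118 RPKM in sh-NC and 87.3, 80.5 and 84.2 RPKM in sh-*Etv5* (log2 fold change -0.62 with SE 0.055, adjusted p = 1.52e-06). Neither gene had overlapping groups, and the log2 fold change of subunit g, *Atp5l*, was smaller (log2 fold change -0.13, adjusted p = 0.00387).

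The ring that turns with the flow of protons is made of subunit c, which 3 genes encode as the same mature protein. *Atp5g3* supplied most of their summed RPKM, 72.7% ± 0.597 in sh-NC and 73.1% ± 1.67 in sh-*Etv5* (SD, n = 3 and 3), and it measured 292, 302 and 301 RPKM in sh-NC and 197, 193 and 225 RPKM in sh-*Etv5* (log2 fold change -0.54 with SE 0.052, adjusted p = 2.75e-06). *Atp5g2* measured 97.1, 96.1 and 93.7 RPKM in sh-NC and 61.7, 59.1 and 62.7 RPKM in sh-*Etv5* (log2 fold change -0.64 with SE 0.036, adjusted p = 2.98e-08), and 38.3% of its 50-base sequences are shared with other annotated genes. *Atp5g1* was at 16.7 ± 2.67 RPKM in sh-NC and 14.2 ± 1.94 RPKM in sh-*Etv5* (mean ± SD, n = 3 and 3) and was not called (log2 fold change -0.21, adjusted p = 0.0954). The summed level of the 3 genes went from 411 ± 4.30 to 281 ± 18.2 RPKM (SD, n = 3 and 3).

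In the F1 head and central stalk, where ATP is formed, 4 of 5 genes were called lower, against 41.0% of all genes tested. The alpha subunit *Atp5a1* measured 425, 423 and 419 RPKM in sh-NC and 319.6, 307 and 316 RPKM in sh-*Etv5* (log2 fold change -0.43 with SE 0.030, adjusted p = 2.35e-07), and the gamma subunit *Atp5c1* measured 79.6, 82.3 and 83.1 RPKM in sh-NC and 53.6, 54.0 and 57.8 RPKM in sh-*Etv5* (log2 fold change -0.56 with SE 0.039, adjusted p = 2.05e-07). *Atp5e* (log2 fold change -0.36, adjusted p = 9.38e-05) and *Atp5d* (log2 fold change -0.25, adjusted p = 3.79e-05) were lower as well. The catalytic beta subunit *Atp5b* had the highest level of all 87 genes, 718, 699 and 699 RPKM in sh-NC and 679.9, 655 and 682 RPKM in sh-*Etv5*. Its groups did not overlap, but the difference was not called (log2 fold change -0.069, adjusted p = 0.0689, 95% interval -0.14 to 0.00094), whereas the interval of *Atp5a1*, which pairs with it in the head, was -0.49 to -0.36. In the peripheral stalk, *Atp5o* (log2 fold change -0.48, adjusted p = 5.58e-06, 35.1% of 50-base sequences shared) and *Atp5j* (log2 fold change -0.24, adjusted p = 0.000716) were called lower, and *Atp5f1* (log2 fold change 0.073, adjusted p = 0.11) and *Atp5h* (log2 fold change -0.10, adjusted p = 0.249) were not called. *Atp5s*, known as coupling factor B and not a subunit, measured 1.56, 1.65 and 1.51 RPKM in sh-NC and 3.07, 2.84 and 2.60 RPKM in sh-*Etv5* (log2 fold change 0.58 with SE 0.076, adjusted p = 3.68e-05), and its groups did not overlap.

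**Figure D4:**
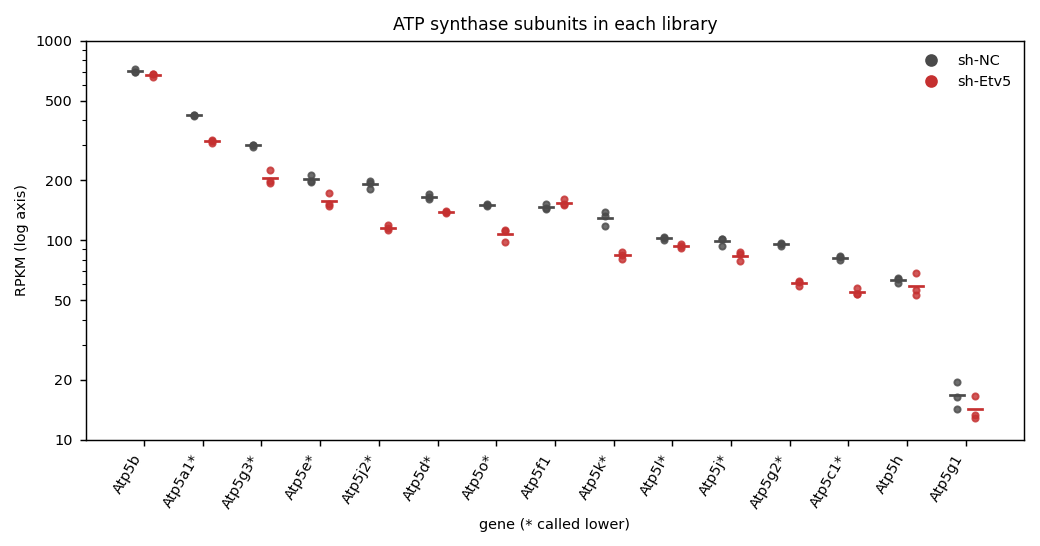
RPKM on a log axis of the 15 ATP synthase genes, ordered by their mean in sh-NC, with 1 point per library (sh-NC gray, sh-Etv5 red, n = 3 each), a bar at each group's mean and an asterisk on the 11 genes called lower. The red points lie below the gray ones for 12 genes, while those of Atp5f1, Atp5h and Atp5g1 overlap with them.

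Most of these genes are short and strongly expressed, so the counts were also set beside genes of like length and level. A principal transcript under 1000 bases was annotated for 48 of the 87 genes, of which 64.6% were called lower with a median of -0.21, against 40.5% and -0.088 for all 991 tested genes of that length. Among genes under 1000 bases with a mean RPKM of at least 50, 67.6% of 37 genes of the respiratory chain and 47.9% of all 234 tested genes were called lower. By level alone, 18 of the 24 genes at a mean of 100 RPKM or more were called lower, against 45.9% of the 536 tested genes at that level. Of the 9 genes under a mean of 10 RPKM, 1 was called lower and 22.2% were called higher, against 33.9% and 34.5% of the 5087 tested genes at that level. Of the 67 genes that share under 10% of their 50-base sequences with other genes, 42 were called lower and 5 were called higher. The kit named in the methods does not mark strand, so reads of overlapping genes on opposite strands cannot be told apart, and exons of 31 of the 87 genes overlap another gene.

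Other genes of the pathway were taken from lists written from general knowledge. None of the 13 subunits encoded by mitochondrial DNA was analysed here. Of 5 tested genes for further subunits, regulators or the shape of the inner membrane, 4 were called lower. They were *Cyc1*, the cytochrome c1 of complex III (log2 fold change -0.24, adjusted p = 0.000147), and *Atpif1*, the inhibitor of ATP hydrolysis by the synthase (log2 fold change -0.34, adjusted p = 9.26e-06), with *Minos1*, which helps to shape the inner membrane (log2 fold change -0.26, adjusted p = 0.000288), and *2010107E04Rik* (log2 fold change -0.39, adjusted p = 0.00101). *Usmg5* was not called (log2 fold change -0.098, adjusted p = 0.153). Of 12 complex I assembly factors outside the name pattern, 3 were called lower, 3 higher and 6 not, with the largest called changes in *Tmem186* (log2 fold change -0.78, adjusted p = 1.59e-06) and *Nubpl* (log2 fold change 0.42, adjusted p = 0.00143). Of 40 assembly factors of complexes II to V, 18 were called lower, 7 higher and 15 not, with a median of -0.11. For comparison, 41.0% of all genes tested were called lower and 33.3% higher. *Cox17*, the copper chaperone of complex IV, was higher, with 88.4, 80.3 and 79.1 RPKM in sh-NC and 167, 167 and 198 RPKM in sh-*Etv5* (log2 fold change 1.09 with SE 0.066, adjusted p = 5.82e-08), and its groups were far apart. *Cox20*, which assists the same complex, fell from 30.8 ± 1.59 to 17.4 ± 0.303 RPKM (mean ± SD, n = 3 and 3, log2 fold change -0.79, adjusted p = 4.31e-08).

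Transcription factors and cofactors that are known to act on respiratory chain genes or on mitochondrial DNA were mostly lower. Of 21 tested, 15 were called lower, 2 higher and 4 not, with a median of -0.28. Among all genes tested, 41.0% were called lower and 33.3% higher. *Hcfc1*, a coregulator of transcription, fell from 47.4 ± 1.12 to 24.2 ± 2.44 RPKM (mean ± SD, n = 3 and 3, log2 fold change -0.95, adjusted p = 1.11e-07), and *Gabpb2*, a partner of the ETS factor *Gabpa*, fell from 16.8 ± 0.658 to 8.37 ± 0.559 RPKM (mean ± SD, n = 3 and 3, log2 fold change -0.92, adjusted p = 6.75e-08). *Gabpa* (log2 fold change -0.28, adjusted p = 9.35e-05), *Nrf1* (log2 fold change -0.47, adjusted p = 3.87e-05), *Yy1* (log2 fold change -0.17, adjusted p = 0.00365), *Tfam*, which packages mitochondrial DNA (log2 fold change -0.43, adjusted p = 3.59e-05), and *Pprc1*, a coactivator related to PGC-1 (log2 fold change -0.81, adjusted p = 4.44e-07) were lower too. *Esrra*, a nuclear receptor that acts on the same genes, was called higher, with 20.1, 19.5 and 19.6 RPKM in sh-NC and 36.9, 36.1 and 37.3 RPKM in sh-*Etv5* (log2 fold change 0.87 with SE 0.038, adjusted p = 4.42e-09), and its groups did not overlap. *Ppargc1a* was at or near 0 in every library and was not tested.

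The scaling of the libraries moved the sizes more than the directions. With libraries rescaled to the same sum of RPKM, the median of all genes went from -0.049 to -0.10, 63 of the 87 genes were called lower and 6 higher, and *Ndufa13* lost its call. With libraries shifted to the same median, quantile normalized or rescaled outside the top 10 genes, 51 to 54 were called lower and 7 or 8 higher. Complex V had the lowest median under each of these scalings, and the smallest shift was that of complex IV, except after quantile normalization, where it was that of complex I.

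**Figure D5:**
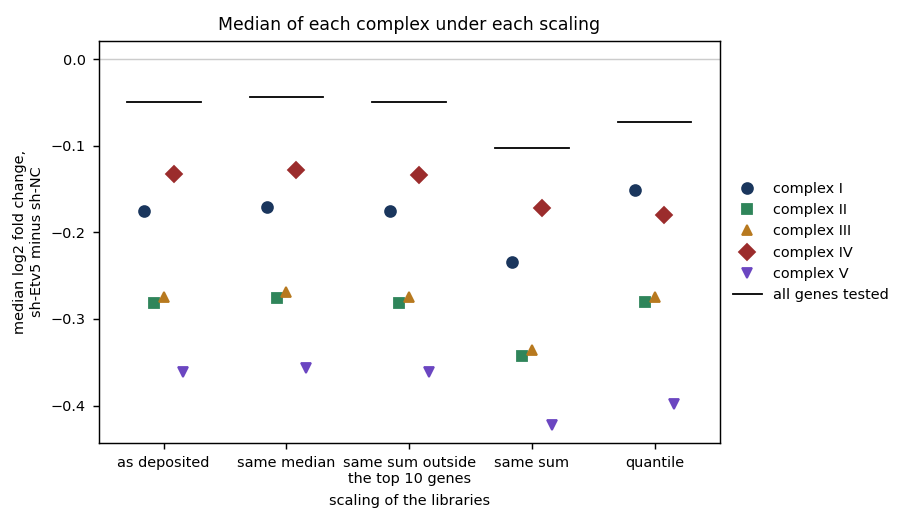
Median log2 fold change (sh-Etv5 minus sh-NC) of each complex as deposited and under 4 rescalings of the libraries, with a black line at the median of all genes tested. The medians of all 5 complexes lie below that line under each scaling, and complex V is lowest, from -0.36 as deposited to -0.42 with the same sum.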

How the data were processed

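The authors deposited RPKM values, reads per kilobase of gene scaled to all mapped reads and taken from coverage tracks, without a log transformation, as 1 value per gene symbol in each of the 6 libraries. The methods name the Illumina TruSeq RNA kit v2 and limma, and the submitters' processing notes name the build mm10. The aligner and annotation are not given in the sources used here. No common step ran through the low values, so reads, depth and counting error are unknown.

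Groups were taken from the sample titles. The filter was an RPKM of 1 or more in 3 or more libraries. The test was limma 3.58.1 (R 4.3.3) on log2(RPKM + 1), two-sided, with eBayes, an intensity trend and no covariate, and adjusted p-values (Benjamini-Hochberg over 10738 genes) under 0.05 were called. A fold change on log2(RPKM + 1) understates the change of low genes. The fit was also run on simulated data with far fewer changed genes than were called here, so that run is not used as evidence. The genes, roles, lists and motifs were chosen with earlier results of these data known. Named were, in each complex, the 3 largest called rises and falls, each gene without a call, the isoform sets and the highest level, and the 2 largest called changes of each list. Further genes, among them *Atp5e*, *Atp5d*, *Atp5o*, *Atp5j*, *Gabpa*, *Nrf1*, *Yy1*, *Tfam*, *Pprc1*, *Esrra* and the macrophage markers, were named after their values were seen, as was the choice of the printed promoters. GENCODE release M21 on GRCm38 gave coordinates, lengths and 50-base sequences for 87 of 87 genes, and RefSeq promoters for GRCm38.p6 matched 73. The values of 1 gene are not reported here. Python 3.11.15, pandas 2.3.3 and Matplotlib 3.10.9 were used. Alternatives were pseudocounts of 0.1 and 0.01, other filters, scalings and thresholds, eBayes without trend, the replicate number as a block, and each library left out.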

Additional observations from a re-analysis of the deposited data

How the results depend on the processing

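No called gene changed sign under any refit. Without a filter on low values, 40 genes were called lower and 5 higher, with 1 higher in complex I and 4 lower in complex IV. That refit kept 45 of 58 calls. It lost those of *Ndufa6*, *Ndufa12*, *Ndufa13*, *Ndufaf2*, *Ndufb2*, *Ndufb5*, *Ndufb8*, *Ndufc2*, *Ndufs4*, *Uqcrb*, *Cox6c*, *Cox7b* and *Cox7c*. The other refits of all libraries called 48 to 63 lower and 6 to 9 higher. An absolute log2 fold change above 0.5 left 10 lower and 2 higher, with 2 lower and 0 higher in complex I, 1 lower in complex II, 2 lower and 0 higher in complex III, 0 lower and 1 higher in complex IV and 5 lower in complex V. Above 1, 0 were lower in any complex and 1 was higher, in complex IV. Subunits alone, without assembly factors and tissue isoforms, gave 4 higher. With libraries at the same sum the medians were -0.23, -0.34, -0.34 and -0.42 for complexes I, II, III and V, and quantile normalization gave -0.40 for complex V. Leaving out 1 library at a time gave 45 to 60 genes called lower and 6 to 9 called higher, 2 to 4 called higher in complex IV (4 without the second sh-*Etv5* library, when *Cox4i1* and *Cox6a1* were added), and a median of -0.43 to -0.32 for complex V. The calls of *Ndufa6*, *Ndufa13*, *Ndufaf2*, *Ndufb2*, *Ndufb8*, *Cox6c* and *Cox7c* were lost without the first or second sh-*Etv5* library or a sh-NC library, while the third sh-*Etv5* library left out kept 58 of 58 calls and added 9. *Cox7a1*, never called, had log2 fold changes of -0.098 after quantile normalization, -0.0050 with the same sum and -0.11 to 0.15 with 1 library left out. The deviations of libraries with the same number had correlations of 0.074, -0.071 and -0.035, so these libraries hardly deviated together. The labels state no pairing by replicate number. The replicate block gave 52 lower and 9 higher and kept 58 of 58 calls. The causes of these shifts were not tested. Depth is unknown, and 3 libraries per group limit the precision.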

Other observations

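Genes for mitochondrial mass, protein import and the inner membrane were mostly lower in sh-*Etv5* cells as well. Of 22 genes, 15 were called lower, 4 were called higher and 3 were not called, with a median of -0.25. Among all genes tested, 41.0% were called lower and 33.3% higher. *Slc25a5*, an ADP and ATP carrier of the inner membrane, measured 537, 529 and 513 RPKM in sh-NC and 372, 355 and 369 RPKM in sh-*Etv5* (log2 fold change -0.53 with SE 0.033, adjusted p = 8.58e-08), and its groups did not overlap. *Slc25a4*, another such carrier, fell from 161 ± 3.34 to 119 ± 2.43 RPKM (mean ± SD, n = 3 and 3, log2 fold change -0.44, adjusted p = 3.34e-07), and *Tomm70a*, an import receptor of the outer membrane, fell from 51.9 ± 0.598 to 37.6 ± 0.983 RPKM (mean ± SD, n = 3 and 3, log2 fold change -0.46, adjusted p = 5.53e-07). The channel genes *Vdac1* (log2 fold change -0.27, adjusted p = 0.000177) and *Vdac2* (log2 fold change -0.26, adjusted p = 9.51e-05) were lower and *Vdac3* was higher (log2 fold change 0.42, adjusted p = 1.07e-05). *Hspa9*, a chaperone of the import motor, and the protease *Afg3l2* were higher (log2 fold change 0.25, adjusted p = 1.63e-05, and log2 fold change 0.43, adjusted p = 2.06e-06).

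A list of electron carriers, other enzymes that reduce ubiquinone and genes for the synthesis or binding of ubiquinone showed no common direction. The counts and the median cover the whole list and were not split by these roles. Of 20 genes tested, 5 were called lower, 6 higher and 9 not, with a median of 0.010. Among all genes tested, 41.0% were called lower and 33.3% higher. *Sqor*, which oxidises sulfide and passes the electrons to ubiquinone, measured 3.93, 5.08 and 4.52 RPKM in sh-NC and 20.7, 20.6 and 21.8 RPKM in sh-*Etv5* (log2 fold change 2.01 with SE 0.072, adjusted p = 9.57e-10), and the lowest sh-*Etv5* value was far above the highest control. *Coq10b*, a ubiquinone-binding protein, rose from 5.08 ± 0.201 to 8.85 ± 0.464 RPKM (mean ± SD, n = 3 and 3, log2 fold change 0.69, adjusted p = 1.04e-06), and *Etfa*, which carries electrons from fatty acid oxidation, fell from 85.8 ± 1.10 to 60.7 ± 1.26 RPKM (mean ± SD, n = 3 and 3, log2 fold change -0.49, adjusted p = 1.52e-07). *Cycs*, the gene for cytochrome c, was at 36.7 ± 0.999 RPKM in sh-NC and 38.1 ± 1.92 RPKM in sh-*Etv5* (mean ± SD, n = 3 and 3) and was not called (log2 fold change 0.051, adjusted p = 0.316). *Slc25a4*, *Vdac1* to *Vdac3*, *Hspa9*, *Afg3l2*, *Etfa* and *Cycs* were named after their values were seen.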
